A study of Mus musculus with 2 samples.

Results

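The genes described here encode the histones, the proteins that package DNA, in immune cells sorted from mouse oral tumours. They were chosen by symbol and by count. Of 83 gene symbols of the deposited matrices that begin with Hist1h to Hist4h, H1f, H2af or H3f, 71 had at least 20 unique molecular identifiers (UMIs, each tagging 1 captured RNA molecule) over both libraries. The matrices list 32285 genes. The 71 members comprise 60 genes of the histone clusters (5 for H1, 15 for H2A, 16 for H2B, 12 for H3 and 12 for H4) and 11 single-copy genes (2 for H1, 6 for H2A, 2 for H3 and H3f3aos, which lies antisense to H3f3a). At the edge of the choice, Hist1h2bl had 22 UMIs and Hist1h3h and Hist1h4k had 20 each in the barcodes kept. Outside it, Hist2h2aa2 had 10, Hist1h2ah had 7, H1foo had 3, and Hist1h2bq and Hist1h4m had 1 each, while 7 further symbols had 0. The interest in these genes came from their levels in neutrophils set against dividing cells, so those levels are given as a description.

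Most histone messenger RNAs are made from gene clusters during DNA replication and are the only messenger RNAs of animal cells that normally end without a poly(A) tail. Their end is a short stem-loop, bound by the stem-loop binding protein SLBP, after which the transcript is cut. The single-copy "replacement" histones are made throughout the cell cycle and in resting cells, and carry an ordinary poly(A) tail. Some cluster genes can also use a poly(A) signal further downstream, a form described in cells that have left the cell cycle. Neutrophils are short-lived white cells that no longer divide once mature.

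The 2 groups were a Vehicle group and a group given Momordicine-I, a triterpenoid of bitter melon, at 30 mg/kg daily by intraperitoneal injection. In both groups female C57BL/6 mice aged 6 to 7 weeks carried subcutaneous tumours of MOC2, a mouse oral carcinoma line, implanted with Matrigel. The vehicle was DMSO with Captisol. Tumours of 3 mice of each group were pooled, and live CD45+ cells (CD45 marks white blood cells) were sorted into 1 single-cell library per group. The kit captures the poly(A) tail and reads the 3′ end. With 1 library per group, differences between Vehicle and Momordicine-I have no replicate check. No test was possible, all intervals below cover counting error only, and library, mouse pool and treatment cannot be told apart. The files hold counts per gene and not read positions, so whether a counted histone transcript had a poly(A) tail was not measured.

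The Vehicle library held 33998491 UMIs in 3642 barcodes and the Momordicine-I library 41804810 UMIs in 4693 barcodes, of which 3273 and 4217 cells were kept. Median depth was 5680 and 4929 UMIs per cell. The 71 histone genes took 0.679% of the UMIs of cells in Vehicle (213167 UMIs) and 0.818% in Momordicine-I (310905 UMIs). The libraries shared 10 barcodes, 5 of them among kept cells. Neutrophil-like cells numbered 1784 in Vehicle (54.5% of cells) and 2397 in Momordicine-I (56.8%). S100a8, a calcium-binding protein abundant in neutrophils, was seen in 97.6% and 97.5% of them, and Csf3r, the receptor for granulocyte colony-stimulating factor, in 96.5% and 96.6%. The B cell gene Cd79a was seen in 1.91% and 0.292% of them and the keratin gene Krt8 in 6.33% and 8.47%. Cycling cells, those of any class with at least 0.3% of their UMIs in genes of the S and G2/M phases, numbered 42 and 97. They are a range cut from a score and not a cell type. Most of their UMIs came from a few cells of a tumour-like cluster, as given below. A further 81 and 155 cells lay within 2-fold below that limit, and 21 and 50 of the cycling cells within 2-fold above it. "Other cells" are the remaining 1447 and 1723, which include T-like, B-like, NK-like, monocyte-like and tumour-like cells.

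The stem-loop sites of genes on which the comparisons turn are printed here. Most cluster genes have such a site, and the length of transcript annotated beyond it differs between them. Hist1h2bc, also higher in neutrophil-like than in cycling cells of Vehicle, has no such site in the annotation and is not printed. Each sequence was read from the longest annotated 3′ untranslated region (GENCODE vM21, GRCm38), runs 5′ to 3′ on the gene's own strand, and has the 16 bases that match the histone 3′ stem-loop in capitals with up to 5 bases on either side. The first 6 belong to genes that stood higher in neutrophil-like than in cycling cells in at least 1 library, the next 4 to genes that stood far lower, and the last to a single-copy gene.
Hist1h1c: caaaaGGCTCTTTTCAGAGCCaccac
Hist1h4i: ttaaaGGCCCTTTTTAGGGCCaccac
Hist1h4h: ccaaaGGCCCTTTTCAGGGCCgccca
Hist1h2be: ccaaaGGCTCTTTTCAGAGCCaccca
Hist1h2ac: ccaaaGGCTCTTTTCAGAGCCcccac
Hist2h2aa1: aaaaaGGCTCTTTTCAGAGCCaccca
Hist1h2ap: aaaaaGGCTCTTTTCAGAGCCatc
Hist1h2ab: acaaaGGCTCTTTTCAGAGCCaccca
Hist1h2ae: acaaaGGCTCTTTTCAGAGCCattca
Hist1h3c: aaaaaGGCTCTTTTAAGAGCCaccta
H2afx: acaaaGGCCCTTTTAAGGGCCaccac
The stem-loop itself did not separate the groups of genes. Hist1h1c, high in neutrophil-like cells, and Hist1h2ap, low in them, carry the same 16 bases, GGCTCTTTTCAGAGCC, which 24 members share.

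The length annotated beyond the stem-loop differed more. Hist1h1c (chr13:23738808-23740367, plus strand), a linker histone H1 gene, has 840 bases after it. Hist1h4i (chr13:22040636-22041362, minus strand), an H4 gene, has 330. Hist1h2be (chr13:23583670-23621124, minus strand), an H2B gene, has 1861, and Hist1h2ac (chr13:23681467-23683948, minus strand), an H2A gene, has 2010. Both of the last genes thus have an annotated end far downstream of the site at which replication-type transcripts are cut. By contrast, Hist1h2ap (chr13:21833026-21833507, minus strand) has 3 bases after the stem-loop, Hist1h2ab (chr13:23751126-23751598, plus strand) has 11 and Hist1h3c (chr13:23744973-23745602, minus strand) has 74. Exceptions ran both ways. Hist1h4h (chr13:23531050-23531519, plus strand) has 46 bases and Hist2h2aa1 (chr3:96245497-96246082, plus strand) 35, whereas Hist1h2ae (chr13:23570517-23571220, minus strand), low in neutrophil-like cells, has 151. Hist1h4d and Hist1h1e, also lower in neutrophil-like than in cycling cells of Vehicle, have 770 and 1153. The longest such stretch among the cluster genes lower there was 4884 bases. H1f0 (chr15:79028450-79030504, plus strand), the single-copy linker histone of resting cells, has no stem-loop match in its untranslated region of 1198 bases and holds AATAAA, the usual poly(A) signal.

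Of the 60 cluster genes, 42 have a stem-loop match, 12 have no annotated 3′ untranslated region of at least 16 bases, and 6 have such a region without a match. AATAAA, searched on the gene's own strand, follows the stem-loop in 13 of them. Of the 10 coding single-copy genes, 1 (H2afx) has a stem-loop match and 8 hold AATAAA. Over 21057 other coding genes, 13 (0.0617%) have a stem-loop match and 78.9% hold AATAAA. Many members resemble each other. In the last 400 bases of their transcripts, 27 of the 71 share no 60-base word with another gene and 30 share over 50% of theirs. Hist1h1c, Hist1h4i, Hist1h4d, Hist1h2bc, Hist1h2be and Hist1h2ac share 0%. By contrast, Hist1h2ap, Hist2h2aa1 and Hist1h1e share 100%, Hist1h2ab 69.2%, Hist1h3b 66.3%, Hist1h4h 53.7%, Hist1h3c 49.6% and Hist1h2ae 42.5%. The counts of this second group of genes are uncertain. Their reads could not be told apart from those of copies or, for Hist1h1e, of the overlapping Hist1h2be on the same strand.

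The summed level of histone transcripts in neutrophil-like cells was near or above that of cycling cells, but its make-up differed. In CPM, the UMIs of a gene scaled to the same total in every class, the 71 genes summed to 8424 in Vehicle and 10999 in Momordicine-I neutrophil-like cells, against 8134 and 8051 in cycling cells. Basophil-like cells had 11902 and 10337, and the remaining named classes of at least 50 cells in both libraries lay between 3774 in NK-like cells of Vehicle and 8572 in mixed macrophage-like cells of Momordicine-I. Cluster genes made 1056 and 1744 CPM of the neutrophil-like sums, and 3324 and 2282 of the cycling sums. The make-up of the cluster part also differed. In neutrophil-like cells H1 genes gave 560 and 935 CPM, H4 genes 153 and 357, H2B genes 249 and 329, H2A genes 81.2 and 107, and H3 genes 12.8 and 16.4. In cycling cells H2A genes led with 1824 and 1073 CPM, and H3 genes gave 305 and 177. Among the other named classes of at least 50 cells in both libraries, cluster genes summed to 899 and 1240 CPM in mixed macrophage-like, 912 and 1119 CPM in basophil-like, 679 and 933 in B-like, 597 and 879 in monocyte-like, 534 and 848 in tumour-like, 500 and 546 in NK-like, 628 and 631 in cDC2-like and 486 and 629 in T-like cells.

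**Figure D1:**
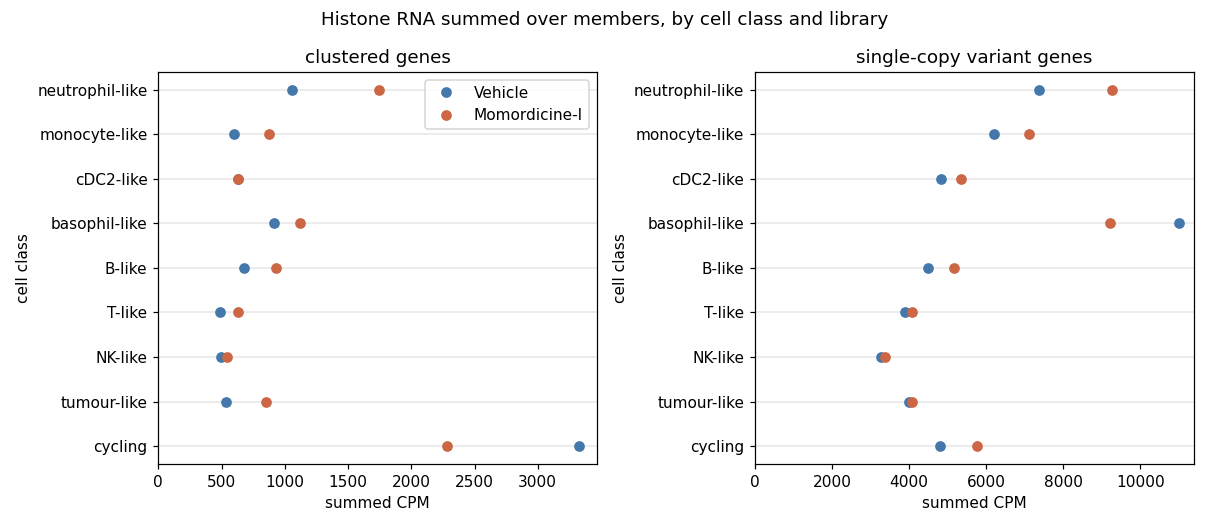
Summed level (CPM, axis from 0) of cluster genes on the left and single-copy genes on the right, in each cell class, with 1 point for the Vehicle and 1 for the Momordicine-I library and no error bars because there are no replicates. Cluster genes reach 3324 and 2282 CPM in cycling cells and 1056 and 1744 in neutrophil-like cells.

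Set against cycling cells of the same library, neutrophil-like cells had more of a few cluster genes and far less of most. Counting a member as higher or lower at 2-fold, with at least 20 UMIs over both classes, 5 of 55 measured members were higher and 42 lower in Vehicle, where 19.7% of 11031 genes were higher and 51.3% lower. In Momordicine-I, 10 of 59 were higher and 39 lower, where 20.5% of 11687 genes were higher and 49.6% lower. Because this pattern drew attention to the genes, nothing is read from these shares. The median log2 ratio of the members was -3.72 and -2.58, and that of all genes -1.07 and -0.98. Scaled by the median of ratios over all genes in place of total UMIs, the split was 10 higher and 35 lower in Vehicle and 14 and 32 in Momordicine-I. Under that scaling 35.3% of all genes were higher and 35.3% lower in Vehicle, and 32.8% and 36.4% in Momordicine-I.

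Hist1h1c stood out among the cluster genes that were higher. It had 499.6 CPM in neutrophil-like and 64.1 CPM in cycling cells of Vehicle, a ratio of 7.79 (95% interval 6.47 to 9.47), and 835.8 and 89.4 CPM in Momordicine-I, a ratio of 9.35 (8.23 to 10.7). Hist1h2bc, an H2B gene, had 189 and 51.6 CPM in Vehicle and 269 and 199 CPM in Momordicine-I. Hist1h4i had 99.7 and 45.4 CPM in Vehicle and 245 and 175 CPM in Momordicine-I. The smaller Momordicine-I ratios of these last genes (1.35 and 1.40) rested on 1 cycling cell, which held 68.9% of the cycling UMIs of Hist1h2bc and 75.0% of those of Hist1h4i. Without the highest cell of each gene in either class, their log2 ratios in Momordicine-I were 2.03 and 2.39. The single-copy H3.3 genes were higher too: H3f3b had 5309.8 and 1689 CPM in Vehicle and 7067 and 2232 CPM in Momordicine-I, and H3f3a had 1565 and 685 CPM and 1509.9 and 702 CPM. Their ratios, 3.14 and 3.17 for H3f3b and 2.28 and 2.15 for H3f3a, differed little between libraries. Hist1h2be, Hist2h2aa1, Hist1h2ac and Hist1h4h passed 2-fold in Momordicine-I alone, with ratios of 2.85, 3.41, 3.70 and 2.07 there and 1.38, 1.31, 1.14 and 0.483 in Vehicle. The difference between libraries was not tested.

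**Figure D2:**
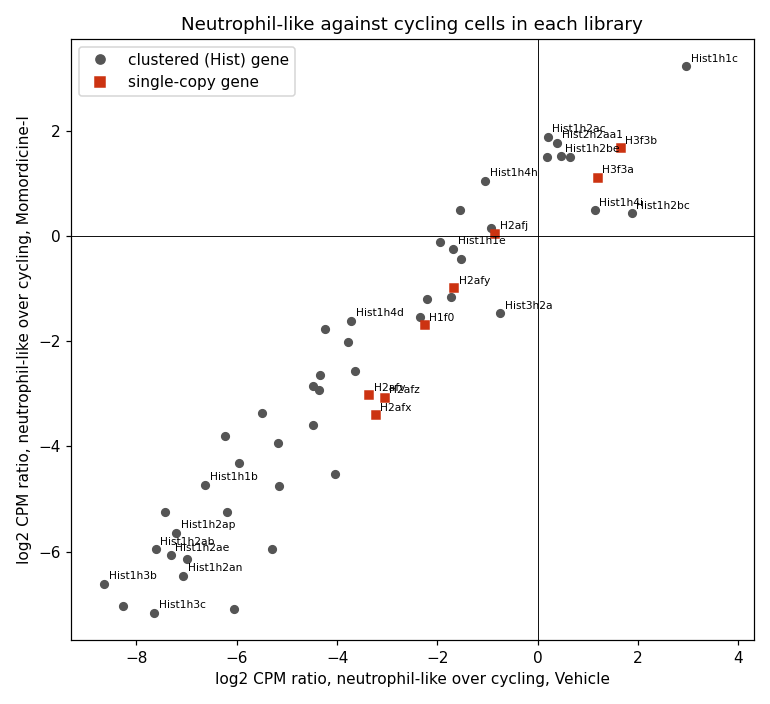
Log2 ratio of neutrophil-like to cycling cells for each measured histone gene, Vehicle on the x axis and Momordicine-I on the y axis, with cluster genes as circles and single-copy genes as squares. Of 53 genes plotted, 49 have the same sign in both libraries, and Hist1h1c stands at the upper right with ratios of 7.79 and 9.35.

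Most cluster genes that were lower in neutrophil-like cells were lower by a wide margin, but not all. Hist1h4h in Vehicle was only just past 2-fold. Hist1h2ap, an H2A gene, had 7.02 CPM in neutrophil-like and 1042 CPM in cycling cells of Vehicle (log2 ratio -7.21) and 12.3 and 611 CPM in Momordicine-I (-5.64). Hist1h2ae, also H2A, had 2.56 and 409 CPM, then 3.87 and 260 CPM. Hist1h1b, an H1 gene typical of dividing cells, had 2.98 and 295 CPM, then 5.87 and 155 CPM. Among Hist1h2ap, Hist1h2ae and Hist1h1b the narrowest gap was that of Hist1h1b in Momordicine-I, a log2 ratio of -4.73. The H3 gene Hist1h3b had 0 UMIs in neutrophil-like cells of Momordicine-I and 20.2 CPM in cycling cells. Against a floor of 3 counts in the class its log2 ratio was -6.61 or lower. Among single-copy genes of H2A variants, H2afz (H2A.Z, found at promoters) had 169 and 1403 CPM in Vehicle and 210 and 1771 CPM in Momordicine-I. H2afx, whose protein is phosphorylated at DNA breaks, had 13.6 and 128 CPM, then 12.8 and 135 CPM. H1f0 also was lower, with 24.96 and 119 CPM in Vehicle and 61.1 and 199 CPM in Momordicine-I. Its cycling level differed by source: 159 and 261 CPM in cells of tumour-like clusters, 55.2 and 83.2 in NK-like and 35.0 and 11.9 in the remaining ones. With cycling cells outside tumour-like clusters its log2 ratio in Momordicine-I turned to 0.20.

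The annotated 3′ untranslated region was short in most cluster genes that were lower in neutrophil-like than in cycling cells. In Vehicle, 9 of these 37 genes had a region over 300 bases (median 89), against 3 of 3 higher genes (median 742) and 6 of 7 that were neither (median 1700). In Momordicine-I, 9 of 34 lower genes had one (median 89.5), 5 of 7 higher genes (median 1311) and 6 of 8 that were neither (median 622.5). Against cycling cells, length thus set the lower genes apart from the rest, and not the higher genes from those in between. Against other cells in Vehicle, 6 of 25 lower genes exceeded 300 bases (median 90), 9 of 13 in between (799) and 5 of 6 higher (811). In Momordicine-I this did not hold, with 7 of 20 lower genes (median 176.5), 7 of 16 in between (83) and 7 of 11 higher (742). Between libraries in neutrophil-like cells the order was different, with 7 of the 19 genes higher in Momordicine-I over 300 bases (median 150) and 10 of the 14 that were neither (median 977.5). This is a description of a few genes chosen with their ratios known, and annotated length does not show which end was used in these cells.

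**Figure D3:**
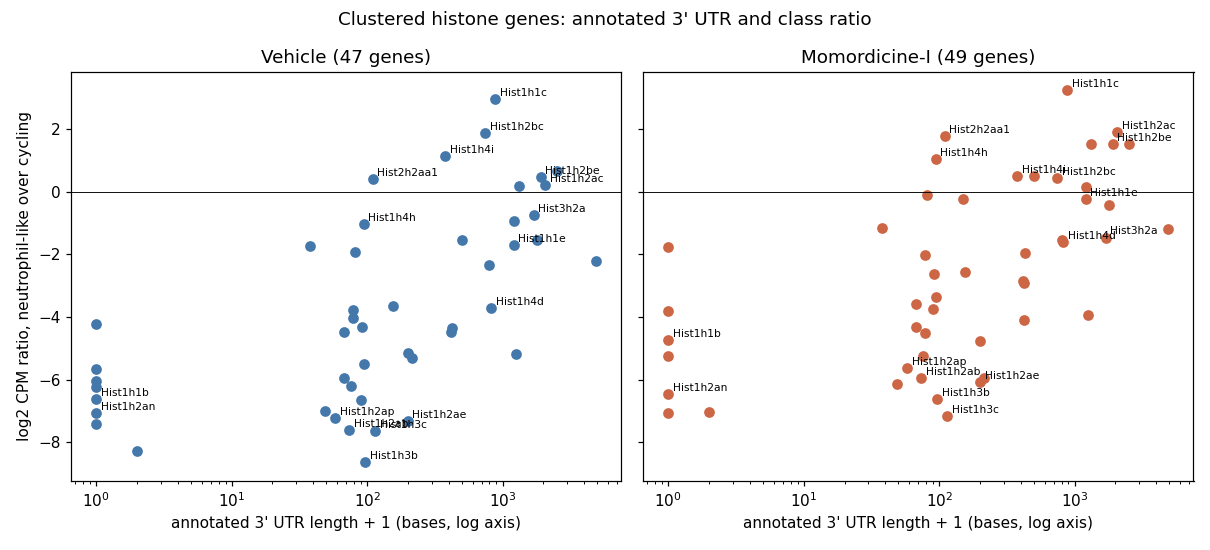
Length of the longest annotated 3′ untranslated region of each cluster gene (bases plus 1, log axis) against its log2 ratio of neutrophil-like to cycling cells, Vehicle and Momordicine-I in separate panels. The 3 genes higher in Vehicle all exceed 300 bases, while the 37 lower genes have a median of 89.

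Against the other, non-cycling cells, Hist1h1c, Hist1h4i and Hist1h2bc were again higher in neutrophil-like cells of both libraries. The genes that were far below cycling cells were closer to these cells, as for Hist1h2ap, with ratios of 0.386 and 0.312. The Momordicine-I value of Hist1h2ap turned direction with thinned cells (log2 ratio 0.12) and against other immune cells only (0.15). In Vehicle 6 of 55 measured members were higher at 2-fold and 31 lower, where 9.82% of 13255 genes were higher and 55.4% lower. In Momordicine-I 13 of 58 were higher and 25 lower, where 10.6% of 13528 genes were higher and 50.1% lower. The median log2 ratio of the members was -1.24 and -0.76, beside -1.26 and -1.003 for all genes. With median-of-ratios scaling the split was 12 higher and 24 lower in Vehicle and 14 and 17 in Momordicine-I. Of all genes, 15.8% were then higher and 45.4% lower in Vehicle, and 15.7% and 43.1% in Momordicine-I.

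Hist1h2be had the largest ratio to other cells in Vehicle among the genes described here, 48.4 against 13 CPM (3.72, interval 3.19 to 4.36), and had 44.7 against 12.1 CPM in Momordicine-I (3.70, 3.19 to 4.296). Hist1h4i had 99.7 against 33.8 CPM in Vehicle (2.95) and 245 against 62.7 CPM in Momordicine-I (3.91). Hist1h1c had 499.6 against 191 CPM (2.61) and 835.8 against 268 CPM (3.12). Hist2h2aa1, Hist1h2ac and Hist1h2bc were also above 2-fold in both libraries, at 2.42 and 2.46, 2.34 and 3.30, and 2.13 and 2.07. Of the H2A variant genes, H2afz, H2afy and H2afv were lower at 2-fold in both libraries, while H2afj (0.836 and 1.11) and H2afx (0.578 and 0.649) were not. H2afz had 169 against 529 CPM in Vehicle and 210 against 637 CPM in Momordicine-I. H2afy, the gene of macroH2A1, a variant with a large extra domain, had 82.0 against 254 CPM and 99.4 against 255 CPM.

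**Figure D4:**
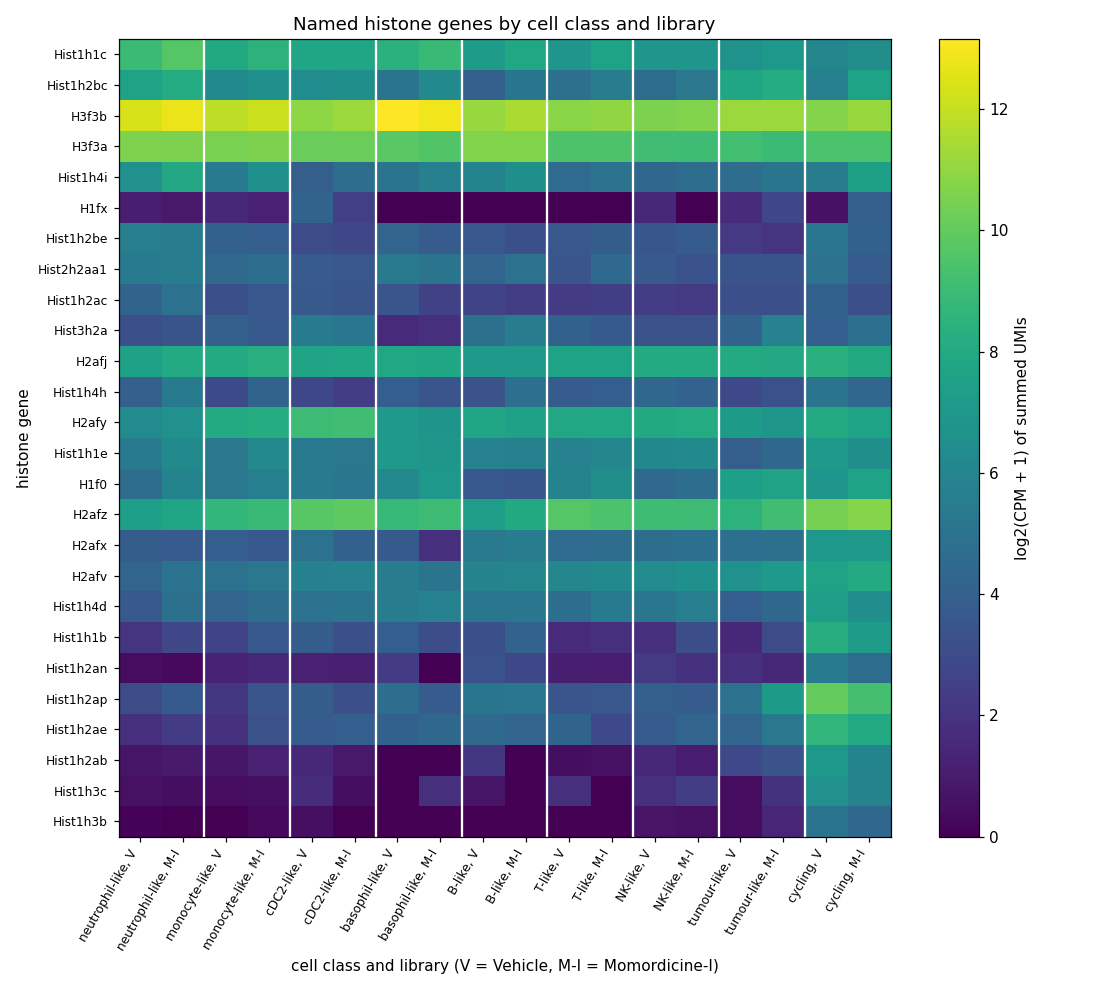
Level of the named histone genes (log2 of CPM + 1, colour scale) in each cell class of the Vehicle and Momordicine-I libraries. Among the classes drawn, Hist1h1c and Hist1h2be are highest in the neutrophil-like columns, and Hist1h2ap, Hist1h2ae and Hist1h3c in the cycling columns, while H3f3b is highest in the basophil-like columns.

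Shares of cells with at least 1 UMI were compared after thinning every cell to 2000 UMIs, which 1638 and 2210 neutrophil-like cells allowed and which left out 146 and 187. Hist1h4i was seen in 14.1% of neutrophil-like cells in Vehicle (Clopper-Pearson 95% interval 12.5 to 15.9) and 27.1% in Momordicine-I (25.3 to 29.0). In T-like cells its share was 3.32% and 5.28%, in B-like cells 9.77% and 16.7%, and in all other cells together 6.35% and 11.3%. The B-like interval in Vehicle, 6.15 to 14.5, includes the neutrophil-like share. Hist1h1c was seen in 39.4% and 54.5% of neutrophil-like cells and 16.3% and 24.2% of T-like cells. Its share was 27.0% and 31.1% in B-like cells and 24.5% and 31.4% in all other cells together. Unthinned, the neutrophil-like shares were 27.2% and 42.5% for Hist1h4i and 55.1% and 67.8% for Hist1h1c. Hist1h2ap was seen in 1.16% and 2.58% of neutrophil-like cells, shares within the counting intervals of T-like cells (1.66%, 0.542 to 3.83, and 1.89%, 0.615 to 4.35), so they are not read as expression. Its share of cycling cells was 54.3% and 38.5%.

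Neutrophil-like cells of the Momordicine-I library had more histone transcripts than those of the Vehicle library. A larger share of cluster genes than of single-copy genes passed the limit, whereas the largest rise in CPM was that of the single-copy H3f3b, given below. Counting a member at a ratio of 1.5 with at least 20 UMIs in the class, 22 of 43 measured members were higher in Momordicine-I and 0 lower, where 12.7% of 10909 genes were higher and 4.39% lower. By kind, 19 of 33 cluster genes and 3 of 10 single-copy genes were higher. The median log2 ratio was 0.59 for the members and 0.15 for all genes. Median-of-ratios scaling moved the median of all genes to 0.03. Then 19 members were higher and 0 lower, beside 8.20% and 6.66% of all genes.

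Among H4 genes, Hist1h4i had 99.7 CPM in Vehicle and 245 CPM in Momordicine-I, a ratio of 2.46 (2.30 to 2.63), or 0.680 and 1.48 UMIs per cell. Hist1h4h had 15.6 and 43.3 CPM, a ratio of 2.77 (2.35 to 3.28), and Hist1h4d 11.9 and 28.0 CPM, a ratio of 2.35 (1.94 to 2.86). Each of these H4 genes was more than 2-fold higher in Momordicine-I, whereas Hist4h4 (1.42) and Hist2h4 (1.10), named after their values were seen, were below 1.5. Among linker histones, Hist1h1c had 499.6 and 835.8 CPM, a ratio of 1.67 (1.62 to 1.73). Hist1h1e had 43.4 and 77.9 CPM, a ratio of 1.80 (1.62 to 2.00). H1f0 had 24.96 and 61.1 CPM, a ratio of 2.45 (2.15 to 2.80). All 3 of these linker genes were above 1.5, whereas Hist1h1d was at 1.11 and H1fx had 1.16 and 0.897 CPM.

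The H2A and H2B genes were less even. Hist1h2ac had 18.2 and 30.4 CPM (1.67), and Hist1h2bc had 189 and 269 CPM (1.42, interval 1.35 to 1.497). Hist1h2be had 48.4 and 44.7 CPM, a ratio of 0.924 whose interval of 0.825 to 1.03 includes 1. Hist2h2aa1 had 40.9 and 44.7 CPM (1.09). So the gene with the largest excess over other cells in Vehicle, Hist1h2be, was no higher in Momordicine-I. Among single-copy genes H2afv, a second H2A.Z gene, had 18.3 and 31.8 CPM (1.73, interval 1.47 to 2.04). H3f3b had 5309.8 and 7067 CPM (1.33), H2afj 183 and 261 CPM (1.43), H2afz 169 and 210 CPM (1.24), and H2afy 82.0 and 99.4 CPM (1.21). H3f3a, which encodes the same H3.3 protein as H3f3b, had 1565 and 1509.9 CPM (0.965), and H2afx 13.6 and 12.8 CPM (0.937).

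**Figure D5:**
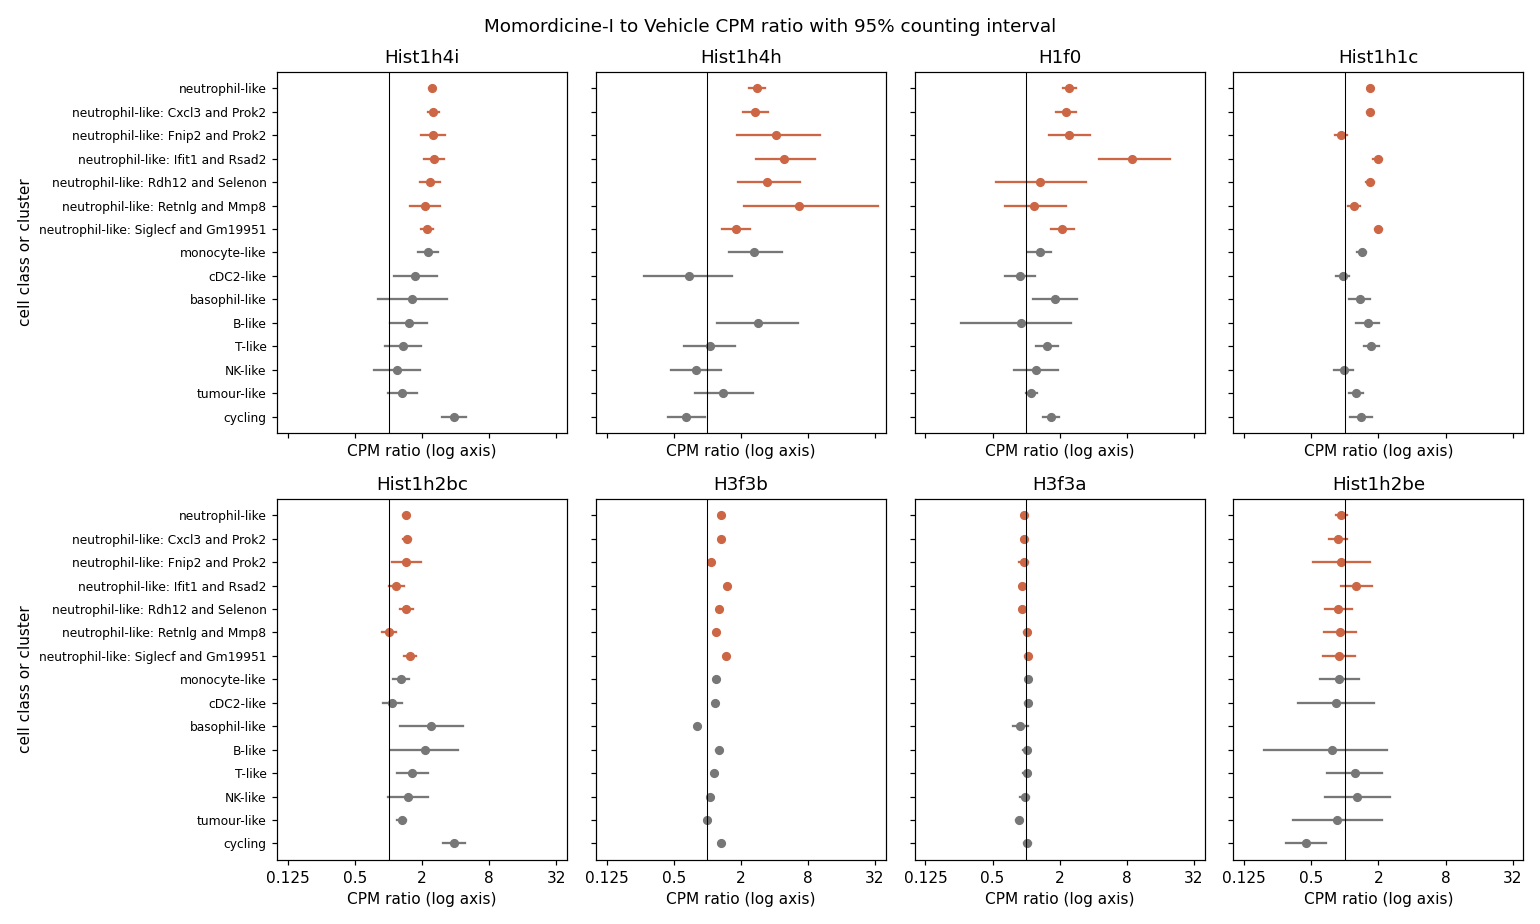
Ratio of Momordicine-I to Vehicle CPM (log axis) for 8 histone genes, 1 panel each, in neutrophil-like cells, the 6 neutrophil-like clusters and other classes with at least 20 UMIs, with 95% counting intervals as bars. In neutrophil-like cells as a whole Hist1h4h, Hist1h4i and H1f0 lie at 2.77, 2.46 and 2.45, while Hist1h2be and H3f3a lie near 1.

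Hist1h4i and Hist1h4h had this direction in each of the 6 neutrophil-like clusters, each named here by its leading gene. Hist1h4i ranged from a ratio of 2.11 in the cluster led by Retnlg to 2.55 in that led by Ifit1, and its levels went from 61.0 to 129 CPM and from 79.9 to 204 CPM in those clusters. In the cluster led by Siglecf it went from 184 to 409 CPM, the highest level of the 6. Hist1h4h was between 1.80 and 6.69 over the clusters, the highest value resting on 3 UMIs in Vehicle. Hist1h1c was more uneven, from 0.921 (interval 0.819 to 1.04) in the cluster led by Fnip2 to 2.00 in that led by Siglecf. H1f0 ran from 1.19 in the Retnlg cluster to 8.89 in the Ifit1 cluster, where it had 10 and 60 UMIs, an interval of 4.51 to 19.5. Counts of members higher and lower, with the percentages of all genes in the same order, were 17 and 0 of 28 for Siglecf (13.1% and 5.56%), 12 and 2 of 30 for Cxcl3 (12.0% and 5.19%), 11 and 0 of 22 for Ifit1 (14% and 6.64%) and 9 and 1 of 22 for Rdh12 (12.2% and 5.32%). They were 6 and 1 of 20 for Retnlg (19.7% and 5.58%) and 6 and 3 of 22 for Fnip2 (15.6% and 8.0%). The Siglecf cluster thus had the largest share of members higher, and the last clusters named the smallest.

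Part of this difference was also present outside neutrophil-like cells. Hist1h4i was above 1 in 9 of 9 other non-cycling classes measured and at 1.5 or more in 5, from 1.18 in NK-like cells (20.2 and 23.9 CPM) to 2.73 in mixed macrophage-like cells (64.4 and 176 CPM). In monocyte-like cells it had 42.1 and 95.0 CPM, and in B-like cells 60.3 and 91.5 CPM. Hist1h1c was 1.72 in T-like cells (116 and 199 CPM) and 1.61 in B-like cells (148 and 237 CPM). Members were higher and lower in 12 and 1 of 32 for monocyte-like cells (6.37% and 8.74% of all genes), 11 and 0 of 29 for B-like cells (11.2% and 14.5%), 9 and 1 of 31 for T-like cells (9.65% and 10.8%) and 9 and 2 of 29 for tumour-like cells (6.87% and 13.6%). NK-like cells had 1 higher and 0 lower of 26 (5.77% and 9.13%), and cDC2-like cells 3 and 5 of 32 (6.44% and 9.77%). Mixed macrophage-like cells had 6 and 1 of 25 (7.57% and 9.72%), basophil-like cells 4 and 0 of 14 (13.9% and 16.5%) and ILC2-like cells 1 and 1 of 13 (13.7% and 12.9%). Higher members thus outnumbered lower ones in each of these classes but cDC2-like and ILC2-like cells. In NK-like cells this rested on 1 member of 26 (3.85%), below the 5.77% of all genes, and is not read as a direction. Differences between classes were not tested. The part of neutrophil RNA in other cells was not tested. Neutrophil marker genes took 8.81% of UMIs in Vehicle and 8.57% in Momordicine-I neutrophil-like cells. Their share was 4.45% and 4.82% in mixed macrophage-like, 2.39% and 2.21% in monocyte-like and 1.38% and 1.69% in basophil-like cells. It was 0.275% and 0.231% in T-like, 0.0979% and 0.0938% in B-like and 0.0751% and 0.139% in NK-like cells.

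In cycling cells most cluster genes were lower in Momordicine-I, while most single-copy genes were not. There 6 of 58 measured members were higher and 39 lower in Momordicine-I, where 12.5% of all genes were higher and 13.2% lower, and of the 48 cluster genes 4 were higher and 38 lower. Of 10 single-copy genes 2 were higher and 1 lower, and their summed level was 4810 CPM in Vehicle and 5769 CPM in Momordicine-I. The median log2 ratio was -0.80 for the members and -0.02 for all genes. Hist1h2ap had 1042 and 611 CPM, Hist1h2ae 409 and 260 CPM, Hist1h1b 295 and 155 CPM and Hist1h3c 99.3 and 59.1 CPM. Of 39 members measured in both kinds of cell, 14 were higher in neutrophil-like and lower in cycling cells, 0 the reverse and 2 higher in both. Over all 9012 genes measured in both, 1.41% were higher in neutrophil-like and lower in cycling cells, 0.455% the reverse and 1.58% higher in both. Hist1h4i appeared higher in cycling cells too, at 45.4 and 175 CPM, but without the highest cell of each library the ratio went from 3.85 to 1.11.

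The cycling cells of the libraries were not of the same make-up. They had a median depth of 20795 UMIs in Vehicle and 3953 in Momordicine-I. Cells from tumour-like clusters numbered 17 and 66 and held 62.7% and 69.9% of the cycling UMIs, and those from NK-like clusters 15 and 16. Of all cycling UMIs, 1762387 in Vehicle and 2673922 in Momordicine-I, the tumour-like cluster with many UMIs per cell held 1071987 and 1711766. These came from 5 and 16 cells, so most UMIs behind the pooled cycling levels came from few cells. Genes of the S phase, in which DNA is replicated, took 49.5% of the cell-cycle UMIs in Vehicle and 30.6% in Momordicine-I. Of the S-phase list 0 of 20 were higher and 13 lower in cycling cells of Momordicine-I, and of the G2/M list 11 of 23 were higher and 0 lower. Within cells of NK-like clusters the summed cluster genes had 5343 and 3915 CPM, and within the 10 and 15 cells from all remaining clusters 1713 and 462 CPM. Cells of tumour-like clusters, 2498 and 2201 CPM together, were split. The 5 and 16 cells of the cluster with many UMIs per cell had 2544 and 2221 CPM, with 41.7% and 44.3% of these UMIs in 1 cell of each library, while the 12 and 50 cells of the cluster with few UMIs had 960 and 1983 CPM. The direction was thus not the same in all sources. The part of phase, depth and source in the difference was not tested.

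Genes that act on histones were examined as lists. Those of histone 3′ end processing were mostly flat between libraries in neutrophil-like cells: of 13 measured, Casp8ap2, a regulator of histone transcription, was higher (25.04 and 39.5 CPM, ratio 1.58) and Zfp473, a U7 particle component, lower (10.9 and 6.08 CPM, ratio 0.557). Slbp, the stem-loop binding protein, had 108 and 132 CPM (1.22). Of 13 polyadenylation genes measured, 0 were higher and 0 lower. Chaperones that carry histones to DNA were higher in 5 of 19 and lower in 0. They were Asf1a (2.12) and Asf1b (1.79), which hand over H3 and H4, Hira (1.83) and Ubn2 (1.66), which deposit H3.3, and Ssrp1 (1.62), a subunit of FACT. S-phase genes were higher in 8 of 19 and lower in 0, and G2/M genes higher in 4 of 12 and lower in 1, beside 12.7% and 4.39% of all genes. Of 8 genes for chromatin and nuclear shape 0 were higher and 1 lower.

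Against cycling cells in Vehicle, where 51.3% of all genes were lower and 19.7% higher, neutrophil-like cells were lower in 10 of 13 genes of 3′ end processing and higher in 1, Zfp473, which had no UMI in cycling cells. Slbp had 108 CPM in neutrophil-like and 163 CPM in cycling cells, so it was not among those lower at 2-fold. Of 13 polyadenylation genes 3 were higher and 7 lower, near the shares of all genes. The 3 higher were Pcf11 (4.20) and Clp1 (3.93), subunits of the cleavage machinery that acts with RNA polymerase, and Cpsf7 (2.67), a subunit of cleavage factor I. Chaperones were lower in 13 of 19, among them Asf1b and Chaf1a, and higher in 1, Ubn1 (2.46). In Momordicine-I, 20.5% of all genes were higher and 49.6% lower. The counts higher and lower there were 1 and 8 of the 3′ processing genes, 1 and 4 of the polyadenylation genes and 1 and 12 of the chaperones. Of 8 genes for chromatin and nuclear shape, 1 was higher and 4 lower in Vehicle and 2 and 4 in Momordicine-I. The 1 higher in Vehicle was the lamin gene Lmnb1, with 1579 CPM in neutrophil-like and 207 CPM in cycling cells, and the 4 lower were Lmna, Hmgb1, Hmgb2 and Padi2.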

How the data were processed

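Counts were deposited by the authors as 1 gene-by-barcode matrix per library; Cell Ranger 6.0.2 and mm10 are named per the submitters' processing notes, and whether intronic reads were counted is not given in the sources used here. Barcodes with under 200 genes (25 in Vehicle, 26 in Momordicine-I) or over 10% mitochondrial UMIs (274 and 322) were left out. Scrublet's own threshold marked 2 and 1 barcodes, so the barcodes with the top scores, at 0.8% per 1000 barcodes, were removed instead (91 and 153). Python 3.11.15, scanpy 1.11.5, scikit-learn 1.9.0, leidenalg 0.10.2, scipy 1.17.1 and numpy 2.4.6 were used.

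Cells of both libraries were clustered together (2000 variable genes without histone, cell-cycle and antigen-receptor genes, 30 principal components, 15 neighbours, Leiden resolution 1), and clusters were named from marker lists. The 43 cell-cycle genes defined cycling cells (at least 0.3% of UMIs and 5 genes). UMIs were summed per class and library and given as CPM, and ratios have exact conditional binomial 95% intervals. Classes were compared at 40 or more cells, a limit lowered from 50 because the Vehicle library has 42 cycling cells. CPM depends on what else a cell expresses, and 3′ counts are not scaled by length, so levels are compared within a gene.

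Named genes are the H2A variants H2afz, H2afv, H2afx, H2afy and H2afj, the H3.3 genes, H1f0, H1fx, the 10 cluster genes with the most UMIs, and up to 6 genes each way per comparison whose interval lay farthest from 1, with at least 50 UMIs and 20 CPM on 1 side. Genes printed only for their stem-loop sites or lengths are among these. The members and all lists were chosen with earlier results of these data known. The scripts were tested on simulated counts. Alternatives numbered 13 planned and 4 added after seeing the data.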

Additional observations from a re-analysis of the deposited data

Results flagged for a closer look

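For 7 genes the ratio of Momordicine-I to Vehicle lay at 1.5 or more in neutrophil-like cells and on the opposite side in cycling cells. Each direction rests on 1 library per group, so the difference was not tested. The ratios in neutrophil-like and cycling cells were 1.97 and 0.526 for Hist1h1b, 1.75 and 0.587 for Hist1h2ap, 2.77 and 0.648 for Hist1h4h, 1.51 and 0.635 for Hist1h2ae, 2.35 and 0.547 for Hist1h4d, 1.80 and 0.656 for Hist1h1e, and 1.67 and 0.518 for Hist1h2ac. The shares of neutrophil-like cells with a Hist1h2ap UMI lay within the counting intervals of T-like cells, so its ratio there is not read as a change in expression. Nor is that of Hist1h1b, seen in 0.427% and 1.13% of thinned neutrophil-like cells, below the 1.03% and 1.59% of other cells. For Hist1h2ac 1 cell held 32.1% and 40.9% of the cycling UMIs of Vehicle and Momordicine-I. Without that cell of each library its cycling ratio was 0.466. The neutrophil-like counts of Hist1h2ae gave an interval of 0.956 to 2.42, which includes 1.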

How the results depend on the processing

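Of 17 alternatives, 14 gave a count between libraries in neutrophil-like cells, with 15 to 29 members higher in Momordicine-I; the 2 other cycling limits among them left it at 22. Of 1709 values of single genes under alternatives, 1162 stayed within the counting interval of the value given in the report. Of 1223 values past the fold limit in the report, 18 changed sign. Fewer genes were measured with thinned cells and at a minimum of 50 UMIs, and the cause of the changes was not tested. With thinned cells the median log2 ratio of the members against cycling cells was -1.35 in Vehicle and -1.13 in Momordicine-I, not -3.72 and -2.58. Against other cells it was -0.75 and -0.07, not -1.24 and -0.76. Between libraries it was 0.58, not 0.59. Between libraries, the members lower in Momordicine-I neutrophil-like cells were 3 with cells chosen by their own markers, 1 with the mean of cells' CPM, 5 with no minimum and 1 with clusters weighted equally.

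The share of all genes in the same direction follows each count in parentheses. Against cycling cells in Vehicle, 15 of 25 members were lower with thinned cells (46.8%) and 24 of 36 at a minimum of 50 UMIs (46.9%). Higher were 10 of 55 with median-of-ratios scaling (35.3%), 0 of 55 per cell (3.68%) and 3 of 52 with cycling cells outside tumour-like clusters (17.3%). In Momordicine-I, of 28 with thinned cells 6 were higher (19.9%) and 14 lower (41.5%), and 23 of 40 were lower at the minimum of 50 (46.1%). Higher were 1 of 59 per cell (5.11%), 2 of 50 with a cycling limit of 0.6% (18.5%) and 6 of 48 with cycling cells outside tumour-like clusters (16.3%). Against other cells in Vehicle, 9 of 30 were lower with thinned cells (45.3%) and 19 of 39 at the minimum of 50 (53.7%). Higher were 12 of 55 with median-of-ratios scaling (15.8%) and 1 of 55 per cell (3.80%). In Momordicine-I, of 34 with thinned cells 9 were higher (10.0%) and 8 lower (38.8%), and per cell 0 of 58 were higher (3.05%).

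Directions reversed as follows, in log2 ratios. Against other cells, Hist1h2ap in Momordicine-I was 0.12 with thinned cells and 0.15 with other immune cells only, and Hist1h2ab was 0.12 in Vehicle with the mean of cells' CPM and 0.23 in Momordicine-I with immune cells only. Against cycling cells in Vehicle, Hist1h4h was 0.0475 with median-of-ratios scaling. As UMIs per cell, 86.3% of all genes were lower than in cycling cells in Vehicle and 81.9% in Momordicine-I. Median depth was 20795 UMIs in cycling and 5165 in neutrophil-like cells of Vehicle, and 3953 and 4583 in Momordicine-I. Per cell, H3f3a was -1.44, H3f3b -0.98, Hist1h2bc -0.76 and Hist1h4i -1.49 in Vehicle. In Momordicine-I, H3f3a was -1.08, H3f3b -0.53, Hist1h2ac -0.30, Hist1h2be -0.68, Hist1h4h -1.14 and Hist2h2aa1 -0.42. With cycling cells outside tumour-like clusters, H1f0 was 0.20, Hist1h4h -0.005 and Hist3h2a 0.18 in Momordicine-I. No paired analysis was possible because each group is 1 library.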
